A study of Mus musculus with 4 samples.

Results

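The proximal T cell receptor (TCR) signalling genes are 49 genes that carry the signal from the receptor to its first effectors, among 53379 genes measured by bulk RNA-seq in Treg cells of the large intestine (LI). They were chosen by name and known role, with earlier results of these data known. They comprise 4 CD3 chains, 4 co-receptors and surface regulators, 4 kinases, 11 adaptors, 9 negative regulators and 2 genes of the NF-kB arm. The others are 6 genes of the phospholipase C, diacylglycerol and Ras step and 9 of the calcium, calcineurin and NFAT step. All 49 were found in the table. Of these, 47 passed the criteria for testing, which were a protein-coding gene with a mean FPKM (fragments per kilobase of transcript per 1000000 mapped fragments) above 5 in control or KO, as did 7639 genes in all. The other two, *Rcan1* and *Sos1*, stayed under this level in both groups.

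When a TCR meets its antigen, the Src family kinase Lck, held at the co-receptor CD4, phosphorylates the CD3 chains, and Zap70 docks there and phosphorylates the scaffold LAT and its partner Lcp2. Phospholipase C, recruited to LAT, makes one messenger that releases calcium, which activates calcineurin and NFAT, and a second, diacylglycerol, which activates protein kinase C theta and Ras. Treg cells need this signal for their development and for much of their effector programme, and phosphatases, ubiquitin ligases and diacylglycerol kinases restrain it.

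The study compared 2 control libraries (*Setd2* flox/+ with Foxp3-YFPcre) with 2 KO libraries (*Setd2* flox/flox with Foxp3-YFPcre) of CD3+CD4+YFP+ cells sorted from the steady-state large intestine of C57BL/6 mice, to learn how loss of the histone H3K36 methyltransferase Setd2 alters LI Treg cells. The labels give no age, and the methods give 6 to 12 weeks for mice used in vivo. Cre is driven by *Foxp3* in both groups, so control Treg cells would carry 1 deleted and 1 intact allele of *Setd2*, and a comparison with Treg cells that keep both alleles was not made. Each library was a pool of 2 to 3 littermates, so a p-value measures only the spread between 2 pools. In bulk RNA, fewer cells of a type and less RNA per cell cannot be told apart.

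The targeted gene *Setd2* was listed at 38.19 and 27.36 FPKM in control 1 and 2 and at 26.33 and 36.30 in KO 1 and 2, so the genotype could not be checked from its level. The FPKM of the 4 libraries follow nearly one common distribution, and the depth of each library is unknown. Of the Treg markers, *Ctla4* ranged from 1593.26 to 2310.35 FPKM, while *Foxp3* itself lay between 2.62 and 5.61. Of the markers of other lymphocytes, *Cd8a* was at most 0.35, *Ncr1* at most 0.01 and *Ms4a1* at most 0.63 FPKM, whereas *Cd8b1* reached 2.96, *Cd79a* 3.24 and *Cd79b* 12.54 FPKM. Over all 6 B or plasma cell markers the summed FPKM was 399.77 and 430.95 in control and 451.66 and 450.94 in KO, most of it from *Ighm* and *Jchain*. Over the 6 CD8 T, NK or gamma-delta T cell markers it was 99.05 and 80.13 in control and 114.9 and 133.36 in KO, most of it from *Nkg7*. The 6 myeloid markers summed to 225.91 and 201.71 FPKM in control and 203.67 and 264 in KO, and the 7 epithelial markers to 28.84 and 30.91 in control and 19.95 and 21.21 in KO, nearly all of it from *Epcam*. The 4 stromal or endothelial markers summed to 37.34 and 38.84 in control and 53.08 and 46.06 in KO, most of it from *Pecam1*. At an unadjusted p below 0.05 from limma, the other-cell markers *Nkg7* (0.0101) and *Pecam1* (0.0288) were higher and *Epcam* (0.00644) lower in KO. Among the Treg markers, *Ctla4* (0.00491) was higher and *Ikzf2* (0.0183) lower in KO by the same test. The Treg markers *Il2ra* and *Tnfrsf18* did not pass, and *Foxp3* was too low to be tested. The Y-linked gene *Ddx3y* had 77.30 and 58.05 FPKM in control and 87.95 and 102.23 in KO. *Kdm5d*, also Y-linked, had 4.32 and 1.8 in control and 5.31 and 7.24 in KO. Other Y-linked genes overlapped between groups. *Eif2s3y* had 52.05 and 30.27 in control and 37.39 and 49.68 in KO. *Uty* had 34.59 and 27.29 in control and 28.17 and 34.07 in KO. *Xist* lay between 5.08 and 7.22. The part of these markers in the differences described here was not tested.

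Differences were tested with limma on log2(FPKM + 1), and log2 fold changes are given on that scale with positive values for higher levels in KO, which understates the change of low genes. At the study's threshold, an unadjusted p below 0.05, 6 of the 47 members tested were higher in KO and none was lower. These were the kinase *Txk*, the adaptors *Lat*, *Lcp2* and *Grap2*, the protein kinase C *Prkcq* and the calcineurin subunit *Ppp3ca*, and their log2 fold changes lay between 0.28 and 0.49. The share called higher was 12.8%, compared with 8.61% of all genes tested, and the share called lower was 0%, compared with 7.57%. After Benjamini-Hochberg adjustment over the 7639 genes limma called 0 members, where it called 0.589% of all genes in either direction. None of the 6 calls held in every fit that left out 1 library, although each such fit takes the lone library of its group to vary like the other group. The members that passed were not the same from fit to fit. The estimates of the 6 called members stayed above 0, from 0.19 for *Lcp2* without control 2 to 0.58 for *Ppp3ca* without control 1. Those of other members changed sign, such as *Cd6* with -0.59 without KO 1 and 0.20 without KO 2.

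Both KO libraries lay above both control libraries for 16 members (34.0%, compared with 24.2% of all genes) and below them for 6 members (12.8%, compared with 22.9%). The 22 members whose groups did not overlap were thus 46.8% of those tested, near the 47.1% of all genes. The median log2 fold change of the members was 0.08, against -0.0039 over all genes, and 28 of the 47 (59.6%) were above 0, compared with 49.4% of all genes. The differences were small in size. Their median absolute log2 fold change was 0.151, smaller than the 0.177 of all genes. With 2 libraries per group the smallest p of an exact permutation test on 1 gene is 0.333, so the p-values depend on limma pooling its variance estimate over genes.

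**Figure D1:**
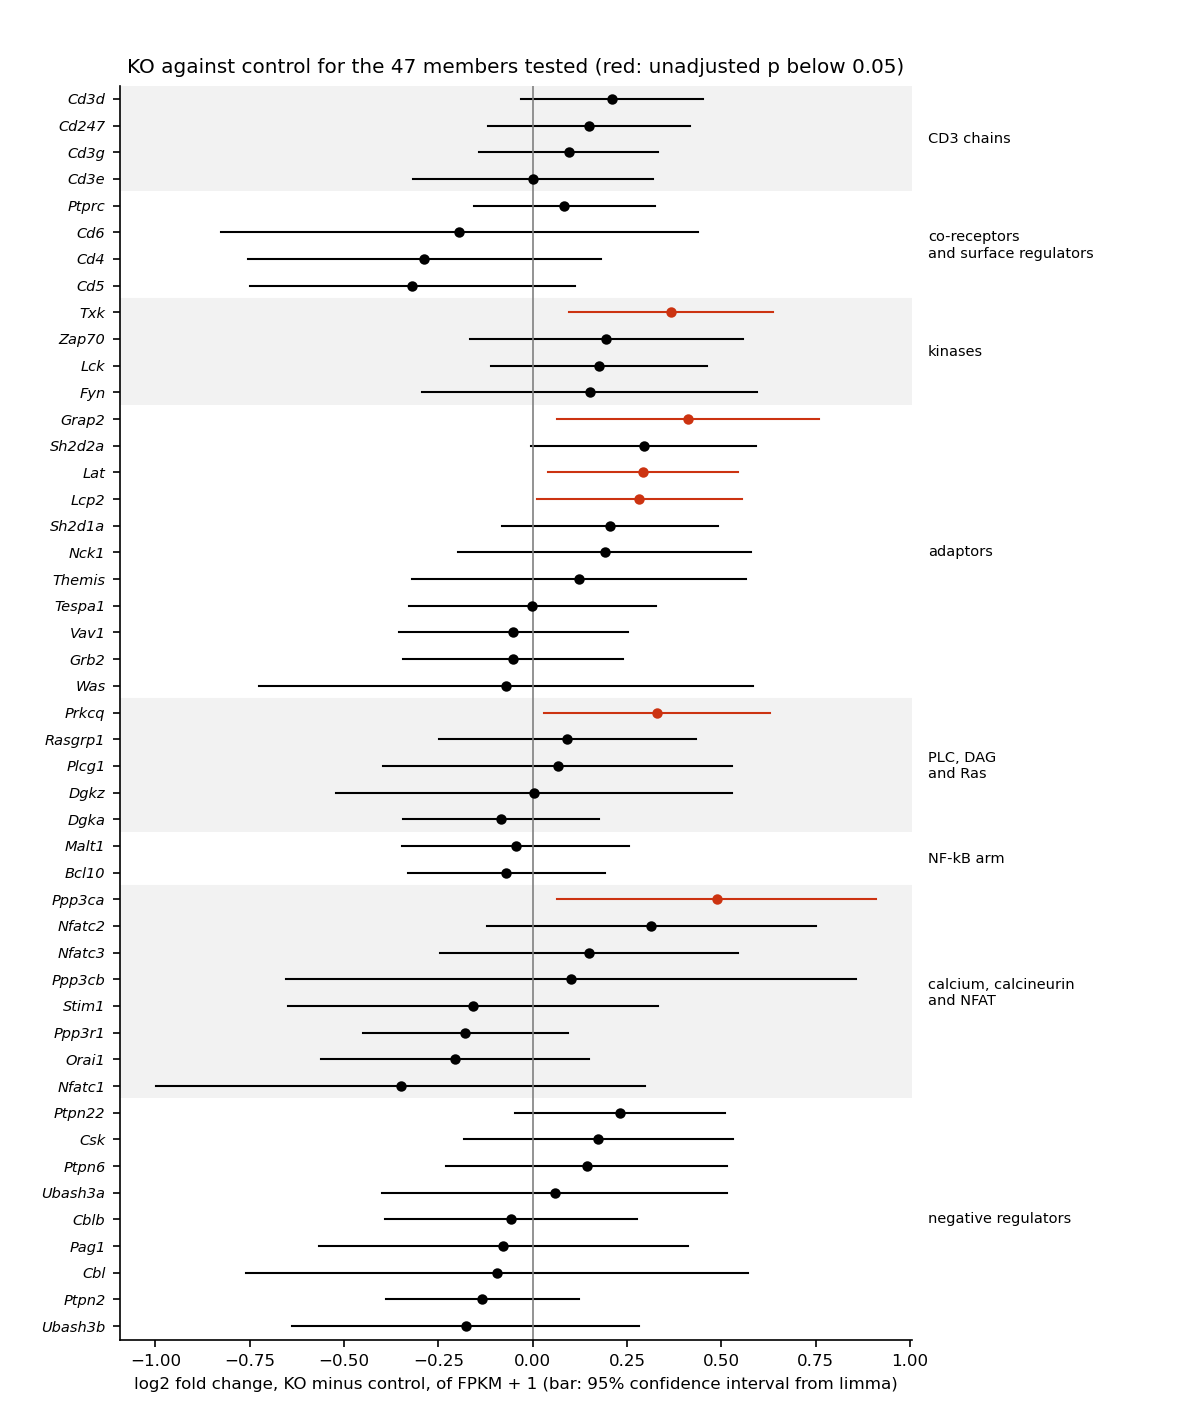
Log2 fold change in KO relative to control, from log2(FPKM + 1) (x axis), for the 47 members tested, grouped by role (y axis), with points for the limma estimate, bars for its 95% confidence interval and red for an unadjusted p below 0.05. Only *Txk*, *Grap2*, *Lat*, *Ppp3ca*, *Prkcq* and *Lcp2* have intervals that stay above 0, and no interval lies wholly below 0.

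The upstream sequences are shown for 5 members whose KO values all lay above the control values. These are *Txk*, *Lat* and *Lcp2*, 3 of the 6 called members, and the neighbouring CD3 genes *Cd3d* and *Cd3g*. No window is shown for the called members *Grap2*, *Prkcq* and *Ppp3ca*. Only *Cd3g* differs from the others in which marked letters it holds. Each sequence is the 250 bases before the RefSeq start of the gene (GRCm38.p6), 5′ to 3′ on the strand of the gene. Capitals mark the letters AGGAAG or CTTCCT, a form of the site bound by ETS factors. They also mark TGGAAA or TTTCCA, a form of the site bound by NFAT. Shorter or other forms of these sites were not marked.
Txk (chr5:72752778-72753027, minus strand): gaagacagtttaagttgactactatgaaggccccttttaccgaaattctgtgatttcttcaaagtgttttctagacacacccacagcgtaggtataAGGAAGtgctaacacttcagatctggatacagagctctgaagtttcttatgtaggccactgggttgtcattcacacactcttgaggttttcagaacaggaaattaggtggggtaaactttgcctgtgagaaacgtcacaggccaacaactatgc
Lat (chr7:126369569-126369818, minus strand): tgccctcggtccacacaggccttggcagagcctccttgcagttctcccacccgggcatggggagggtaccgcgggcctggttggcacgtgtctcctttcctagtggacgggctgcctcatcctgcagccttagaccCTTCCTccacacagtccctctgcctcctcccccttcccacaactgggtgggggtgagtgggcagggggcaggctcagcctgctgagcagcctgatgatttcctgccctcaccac
Lcp2 (chr11:34046678-34046927, plus strand): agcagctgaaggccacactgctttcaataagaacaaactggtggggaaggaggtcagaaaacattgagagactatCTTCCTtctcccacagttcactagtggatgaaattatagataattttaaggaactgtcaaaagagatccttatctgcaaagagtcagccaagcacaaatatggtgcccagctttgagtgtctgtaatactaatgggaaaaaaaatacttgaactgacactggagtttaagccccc
Cd3d (chr9:44981536-44981785, plus strand): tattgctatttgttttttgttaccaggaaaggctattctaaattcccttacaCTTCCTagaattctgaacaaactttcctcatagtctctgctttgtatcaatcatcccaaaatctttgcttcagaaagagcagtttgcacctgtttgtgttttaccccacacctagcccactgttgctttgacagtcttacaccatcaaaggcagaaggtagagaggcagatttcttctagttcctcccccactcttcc
Cd3g (chr9:44980432-44980681, minus strand): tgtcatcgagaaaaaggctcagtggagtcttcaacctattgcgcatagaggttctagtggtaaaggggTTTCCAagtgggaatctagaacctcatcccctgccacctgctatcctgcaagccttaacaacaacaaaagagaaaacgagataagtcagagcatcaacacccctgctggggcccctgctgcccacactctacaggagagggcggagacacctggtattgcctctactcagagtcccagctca

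The ETS letters stand once in the windows of *Txk*, *Lat*, *Lcp2* and *Cd3d* and not in that of *Cd3g*, which holds the NFAT letters once. GC content of these windows ranged from 41.2% in *Lcp2* and *Cd3d* to 65.2% in *Lat*. RefSeq windows were found for 39 members, with 57 starts. On either strand, the ETS letters stood in 34 of the 57 windows (59.6%), compared with 29.5% of the 32851 windows of all genes. By gene, 27 of the 39 members had a window with them. The windows of all genes were not limited to the genes tested here, so the comparison does not set the members against other expressed genes. The NFAT letters stood in 21.1% of the member windows, compared with 18.6% of all windows. TGTGGT or ACCACA, a form of the site bound by RUNX factors, stood in 10.5%, compared with 14%. A match describes the letters of the window and is not evidence of binding.

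The CD3 chains, which pass the antigen signal into the cell, were among the most abundant members, and none of the 4 passed the test. *Cd3g* (gamma) was highest, at 604.84 and 594.72 FPKM in control and 634.91 and 646.76 in KO. The KO libraries were higher without overlap, by a log2 fold change of 0.10 (95% confidence interval -0.14 to 0.33, unadjusted p = 0.377 from limma). *Cd3d* (delta) was listed at the same 214.24 FPKM in control 1 and control 2, and KO had 243.95 and 252.04. The libraries follow nearly one common distribution, so equal listed values can reflect an equal rank rather than an equal measured level. The *Cd3d* gap of 0.21 was the largest of the chains, but it did not pass the test (standard error 0.103, unadjusted p = 0.0789, adjusted p = 0.369 from limma). *Cd3d* and *Cd3g* lie head to head on chromosome 9, with starts 1354 bases apart. *Cd247*, which encodes the zeta chain, was also higher in both KO libraries, at 231.20 and 255.18 FPKM in control and 282.41 and 256.96 in KO. Its span overlaps that of *Pou2f1* on the other strand, which had at most 18.16 FPKM, and whether the counting used strand is not given in the sources used here. *Cd3e* (epsilon) had 148.95 and 186.61 in control and 172.16 and 161.52 in KO, and its groups overlapped.

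**Figure D2:**
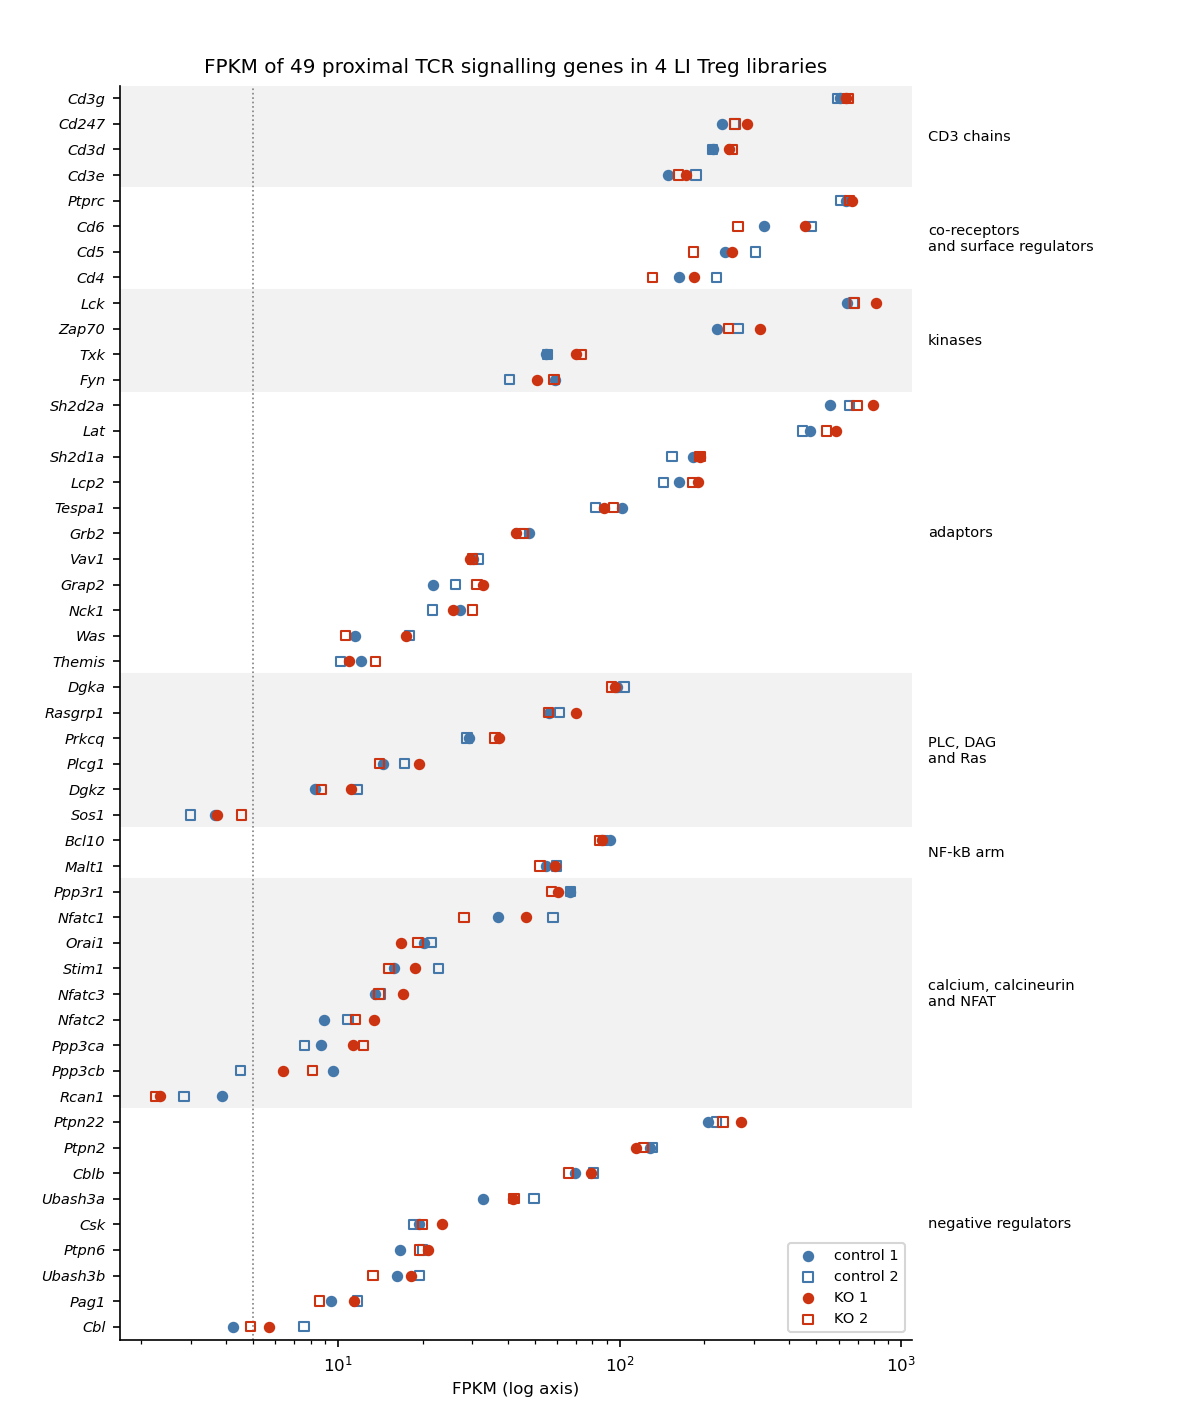
FPKM on a log axis (x axis) of the 49 members in each of the 4 LI Treg libraries (1 row per gene, grouped by role), with circles and squares for the first and second library of a group, and a dotted line at the mean FPKM of 5 used for testing. Levels run from the CD3 chain *Cd3g*, *Lck*, *Ptprc* and *Sh2d2a* near the top to *Sos1* and *Rcan1* left of the line.

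Of the co-receptors and surface regulators, none of 4 passed the test, and 3 differed more between libraries of one group than between groups. *Ptprc* (CD45), the phosphatase that keeps Lck ready for activation, was the most even, at 638.43 and 611.55 FPKM in control and 668.23 and 656.65 in KO, with a log2 fold change of 0.08 (unadjusted p = 0.438 from limma). *Cd5*, an inhibitory receptor whose level follows TCR signal strength in thymocytes, had 235.84 and 304.10 in control and 251.64 and 182.82 in KO. KO 2 was lowest, but KO 1 lay between the control libraries, and the log2 fold change of -0.32 did not pass the test (standard error 0.184, unadjusted p = 0.125, adjusted p = 0.441 from limma). *Cd4* had the same order, at 162.53 and 220.38 FPKM in control and 183.42 and 130.75 in KO. *Cd6*, a surface regulator encoded near *Cd5* on chromosome 19, had 326.53 and 479.81 in control and 453.61 and 263.56 in KO. The difference in these 3 genes depended on which library of either group was left out. For *Cd4* the log2 fold change was -0.51 without control 1 and -0.53 without KO 1, both at an unadjusted p below 0.05, but -0.069 without control 2 and -0.045 without KO 2. For *Cd5* it was -0.50 and -0.55, again both at an unadjusted p below 0.05, but -0.14 without control 2 and -0.090 without KO 2. For *Cd6* it ranged from -0.59 without KO 1, which passed, to 0.20 without KO 2.

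Among the kinases, 1 of 4 passed the test. *Txk*, a Tec family kinase of T cells (ENSMUSG00000054892, chromosome 5, 72695978 to 72752777), had 54.87 and 55.48 FPKM in the control libraries and 69.76 and 73.01 in the KO libraries. The groups stood well apart relative to their spread, with means of 55.2 ± 0.431 and 71.4 ± 2.30 (SD, n = 2). This gave a log2 fold change of 0.37 (standard error 0.116, unadjusted p = 0.0149, adjusted p = 0.211 from limma), the smallest p of any member. Without KO 2 the estimate was 0.33 and no longer passed (unadjusted p = 0.0981). *Lck*, the most abundant kinase, had 643.31 and 676.87 FPKM in control and 813.41 and 682.88 in KO. KO 2 lay just above control 2, and the log2 fold change of 0.18 did not pass the test (95% confidence interval -0.11 to 0.46, unadjusted p = 0.192). *Zap70*, which docks on the phosphorylated CD3 chains, had 221.29 and 263.56 in control and 314.32 and 243.35 in KO, and *Fyn*, the second Src family kinase of T cells, had 59.18 and 40.57 in control and 50.84 and 58.47 in KO. Both overlapped between groups.

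Of the 11 adaptors, the largest role group, 3 (27.3%) were called higher, compared with 8.61% of all genes. Their products meet in the LAT signalling complex, but the signalling genes around LAT were not all higher. *Plcg1*, whose product is recruited to LAT, had a log2 fold change of 0.07 and was not called. The adaptors *Grb2* and *Vav1*, at -0.05 each, were not called either. *Lat* (ENSMUSG00000030742, chromosome 7, 126363824 to 126369570), the membrane scaffold that Zap70 phosphorylates, had 474.93 and 445.77 FPKM in control and 586.55 and 541.77 in KO. *Lcp2* (ENSMUSG00000002699, chromosome 11, 34046920 to 34092295), the cytosolic scaffold of the same complex, had 162.77 and 142.91 in control and 189.25 and 182.26 in KO. *Grap2* (ENSMUSG00000042351, chromosome 15, 80572594 to 80652854), which encodes GADS, the adaptor that joins the products of *Lat* and *Lcp2*, had 21.69 and 26.09 in control and 32.84 and 31.17 in KO. In all 3 genes both KO libraries lay above both control libraries. The log2 fold change was 0.29 for *Lat* (standard error 0.108, unadjusted p = 0.0288, adjusted p = 0.252 from limma). It was 0.28 for *Lcp2* (standard error 0.116, unadjusted p = 0.0429, adjusted p = 0.292 from limma) and 0.41 for *Grap2* (standard error 0.148, unadjusted p = 0.0260, adjusted p = 0.242 from limma). With 1 library left out, the estimates ranged from 0.24 to 0.35 for *Lat*, from 0.19 to 0.38 for *Lcp2* and from 0.28 to 0.54 for *Grap2*, and each gene passed in 1 of the 4 such fits.

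The most abundant adaptor was *Sh2d2a*, which encodes an adaptor that binds Lck, at 559.61 and 656.65 FPKM in control and 792.97 and 697.03 in KO. It fell just outside the threshold, with a log2 fold change of 0.29 (standard error 0.127, unadjusted p = 0.0524 from limma). *Sh2d1a*, an X-linked gene that encodes SAP, the adaptor of SLAM family receptors, had 182.68 and 153.63 in control and 193.58 and 193.02 in KO, higher without overlap (unadjusted p = 0.135). The Rac exchange factor *Vav1* was close to even but lower without overlap, at 30.28 and 31.50 FPKM in control and 29.50 and 30.01 in KO. The other adaptors *Grb2*, *Nck1*, *Tespa1*, *Themis* and *Was* all overlapped between groups. *Was*, an X-linked gene that encodes the actin regulator WASP, showed the replicate pattern of *Cd6*, at 11.50 and 17.96 in control and 17.43 and 10.66 in KO.

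Downstream of phospholipase C, 1 of 5 tested genes passed. *Prkcq* (ENSMUSG00000026778, chromosome 2, 11172108 to 11301222), which encodes the diacylglycerol-activated protein kinase C theta, had 29.25 and 28.72 FPKM in control and 37.25 and 36.08 in KO. The 2 libraries of each group were closer to each other than the groups were, and the log2 fold change was 0.33 (standard error 0.127, unadjusted p = 0.0351, adjusted p = 0.270 from limma). With any 1 library left out it did not pass, although its estimate stayed between 0.31 and 0.35. The most abundant gene of this step was the diacylglycerol kinase *Dgka*, which removes diacylglycerol, at 98.14 and 103.57 FPKM in control and 96.22 and 93.81 in KO (log2 fold change -0.08, unadjusted p = 0.468 from limma). Its KO libraries were lower without overlap. The phospholipase itself, *Plcg1*, had 14.41 and 17.22 in control and 19.40 and 14.08 in KO, and it overlapped between groups, as did the Ras exchange factor *Rasgrp1* and the second diacylglycerol kinase *Dgkz*. The Ras exchange factor *Sos1* was not tested, at 3.66 and 3.00 FPKM in control and 3.73 and 4.54 in KO.

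*Bcl10* and *Malt1*, the members that link protein kinase C theta to NF-kB, were close to even. *Bcl10* had 92.56 and 87.73 FPKM in control and 86.52 and 85.10 in KO (log2 fold change -0.07, 95% confidence interval -0.33 to 0.19, unadjusted p = 0.551 from limma). Its KO libraries were lower without overlap. *Malt1* had 54.72 and 59.77 in control and 58.79 and 52.19 in KO.

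In the calcium, calcineurin and NFAT step, 1 of 8 tested genes passed, and the calcineurin subunits did not move together. *Ppp3ca* (ENSMUSG00000028161, chromosome 3, 136670124 to 136937727), the alpha catalytic subunit, had 8.73 and 7.60 FPKM in control and 11.33 and 12.34 in KO. Its log2 fold change of 0.49 was the largest of any member (standard error 0.180, unadjusted p = 0.0290, adjusted p = 0.253 from limma). The regulatory subunit *Ppp3r1*, the most abundant gene of the step, was lower in both KO libraries, at 66.48 and 66.80 FPKM in control and 60.37 and 57.21 in KO, and did not pass the test (log2 fold change -0.18, unadjusted p = 0.166). The beta catalytic subunit *Ppp3cb* varied most between libraries, at 9.58 and 4.52 in control and 6.36 and 8.13 in KO. Of the calcium entry genes, the channel *Orai1* was lower in both KO libraries, at 20.21 and 21.49 FPKM in control and 16.72 and 19.23 in KO (unadjusted p = 0.215), and the calcium sensor *Stim1* overlapped between groups. *Nfatc1*, the NFAT gene with the highest FPKM, had 37.03 and 58.00 in control and 46.54 and 28.05 in KO, again with control 2 and KO 1 highest, whereas *Nfatc2* was higher in both KO libraries, at 8.92 and 10.87 in control and 13.47 and 11.57 in KO (unadjusted p = 0.134). *Nfatc3* overlapped between groups, at 13.50 and 14.16 in control and 17.03 and 13.99 in KO. The calcineurin inhibitor *Rcan1* was not tested, at 3.87 and 2.84 in control and 2.34 and 2.26 in KO.

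None of the 9 negative regulators passed the test, and the median of their log2 fold changes was -0.06. The phosphatase *Ptpn22*, which acts on Lck and Zap70, was the most abundant, at 206.05 and 220.74 FPKM in control and 269.25 and 232.94 in KO. It was higher in both KO libraries, with a log2 fold change of 0.23 (95% confidence interval -0.05 to 0.51, unadjusted p = 0.0908 from limma). *Csk*, the kinase that inhibits Lck, had 19.47 and 18.57 in control and 23.32 and 19.95 in KO, also higher without overlap (unadjusted p = 0.290). The phosphatase *Ptpn2* was lower in both KO libraries, at 128.05 and 130.51 FPKM in control and 114.01 and 121.58 in KO (unadjusted p = 0.258). The ubiquitin ligases *Cbl* and *Cblb*, the phosphatases *Ptpn6*, *Ubash3a* and *Ubash3b*, and the Csk anchor *Pag1* overlapped between groups. *Cbl* stood just inside the level for testing, with means of 5.91 ± 2.36 FPKM in control and 5.30 ± 0.587 in KO (SD, n = 2).

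The members differed between the 2 libraries of a group in a shared way. In 26 of the 47 (55.3%, compared with 30.7% of all genes), control 2 was above control 1 and KO 1 was above KO 2, and in 8 (17.0%, compared with 32.4%) the order was the opposite. The ratio of control 2 to control 1 was 1.47 for *Cd6*, 1.57 for *Nfatc1*, 1.56 for *Was*, 1.36 for *Cd4* and 1.29 for *Cd5*. The ratio of KO 1 to KO 2 was 1.72, 1.66, 1.64, 1.40 and 1.38 for the same genes. In all 5 the groups overlapped. Across the 47 members the gap of control 2 over control 1 and the gap of KO 1 over KO 2 had a Pearson r of 0.751, compared with 0.305 across all 7639 genes. The genes of one library share its RNA, so these are descriptions across genes. The gaps within groups set the variance of the test, so a member with large gaps could not pass at these fold changes.

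Transcript composition moved with these gaps. The mean of the 2 gaps had a Spearman rho of 0.520 with the GC content of the longest coding transcript across the 47 members and of 0.404 across the 7631 genes that had one. The GC content was 57.5% for *Cd6*, 56.8% for *Cd5* and 55.8% for *Was*, where the median member had 49.3%, and 39.8% for *Ppp3cb* and 39.2% for *Nck1*, whose gaps ran the other way. The relation did not hold gene by gene, since *Csk* (60.1%), *Orai1* (58.6%) and *Lat* (57.9%) had a higher GC content than *Cd6* and mean gaps of 0.075, -0.053 and 0.012. With transcript length rho was 0.355 across members and 0.0541 across all genes. The log2 fold change between KO and control had a rho of -0.102 with GC content across members and -0.0806 across all genes. The part of GC content in the gaps was not tested.

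**Figure D3:**
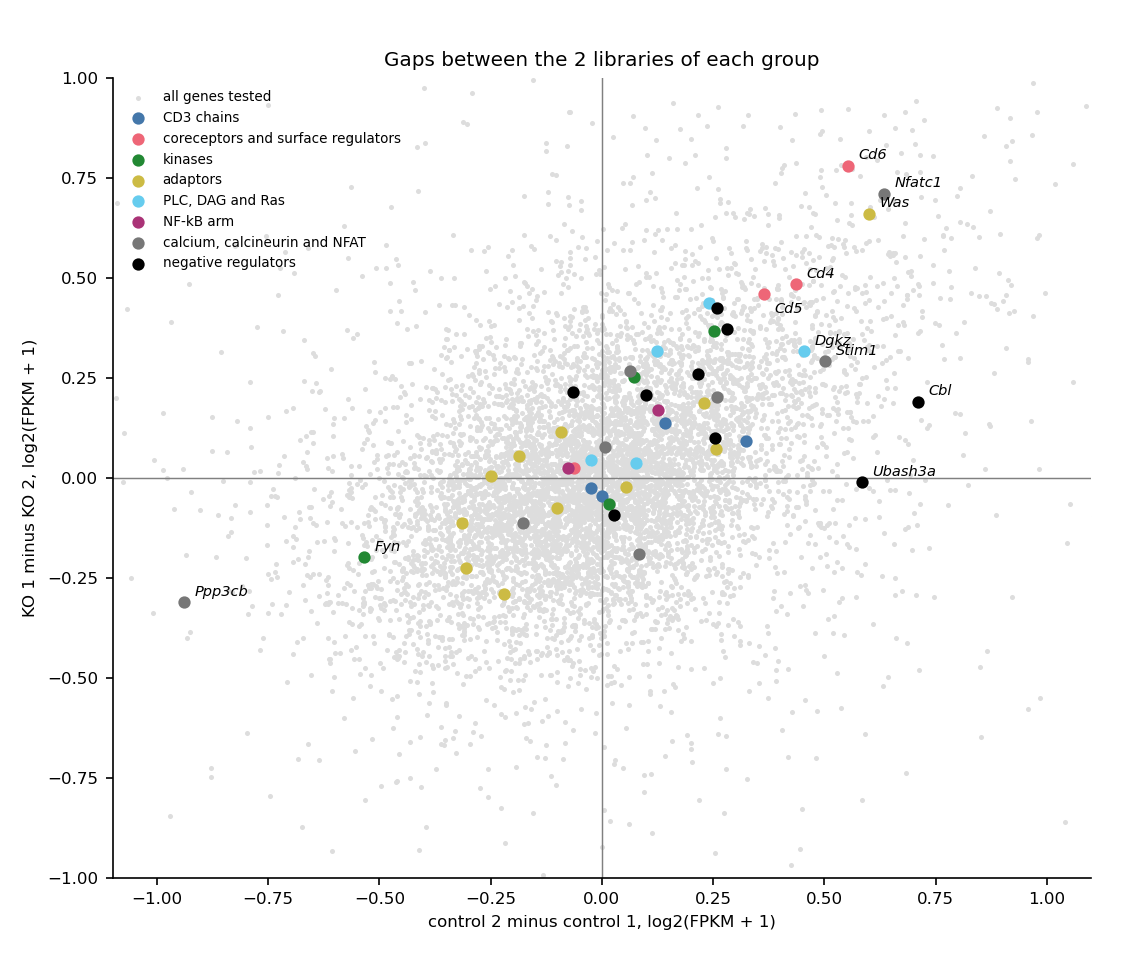
Gap between the 2 control libraries (control 2 minus control 1, x axis) and between the 2 KO libraries (KO 1 minus KO 2, y axis) in log2(FPKM + 1), with 1 point per gene, members coloured by role and all genes tested in grey (91 lie outside the axes). Most members sit in the upper right, led by *Cd6*, *Nfatc1* and *Was*, and the points of the members follow the diagonal more closely than the grey cloud does.

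Beyond these genes, 103 other genes of the TCR pathway were listed by role, of which 88 were tested. At an unadjusted p below 0.05, limma called 5 higher and 10 lower in KO (5.68% and 11.4%, compared with 8.61% and 7.57% of all genes), and 0 after Benjamini-Hochberg adjustment. The lower calls included 5 of the 10 tested genes that TCR signals induce, with none of these higher. Among these lower calls, *Egr2* reached the level for testing only in control, with a mean FPKM of 6.89 in control and 3.925 in KO. The filter therefore favoured a lower call for *Egr2*. *Tnfrsf9*, which encodes the costimulatory receptor 4-1BB and was the most abundant of the 5, had 2459.97 and 3120.54 FPKM in control and 1547.86 and 1719.76 in KO. Both KO libraries were well below both control libraries, with a log2 fold change of -0.76 (standard error 0.144, unadjusted p = 0.000967, adjusted p = 0.0741 from limma). The early response transcription factor *Egr1* had 56.84 and 70.94 in control and 46.92 and 33.45 in KO (log2 fold change -0.67, unadjusted p = 0.00912 from limma). The nuclear receptor *Nr4a3* had 12.38 and 13.33 FPKM in control and 8.67 and 8.56 in KO (log2 fold change -0.53, unadjusted p = 0.0163 from limma). *Nfkbid*, which encodes a nuclear regulator of NF-kB, and *Egr2* were also lower, with log2 fold changes of -0.40 and -0.68. *Egr2* had 8.18 and 5.60 FPKM in control and 4.75 and 3.10 in KO. *Nr4a1*, a relative of *Nr4a3* widely used as a reporter of TCR signals, overlapped between groups, at 349.08 and 394.30 FPKM in control and 410.53 and 223.66 in KO. *Irf4*, *Nr4a2*, *Cd69* and *Tnfrsf4* did not pass the test either, and *Egr3* was too low to be tested. Without KO 2 only *Tnfrsf9* of the 10 was lower at an unadjusted p below 0.05, without control 2 3 were, and over the 4 such fits the log2 fold change of *Tnfrsf9* ranged from -0.94 to -0.59.

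Among the other signalling genes of that list, 5 were higher and 5 lower of 78 tested. This was 6.41% in each direction, below the 8.61% and 7.57% of all genes, so the count does not set these genes apart. The kinase *Pak1*, which regulates actin, was higher in KO, at 51.99 and 44.20 FPKM in control and 69.27 and 70.10 in KO (log2 fold change 0.53, unadjusted p = 0.00427 from limma). *Sla2*, an inhibitory adaptor, had 19.98 and 18.98 in control and 28.72 and 27.80 in KO, or 0.51 on the log2 scale. *Ptprcap*, which encodes a protein bound to CD45, and *Lime1*, a transmembrane adaptor, were higher by 0.46 and 0.31. In the opposite direction, the transmembrane adaptor *Trat1* had 85.49 and 83.01 FPKM in control and 63.32 and 65.51 in KO, or -0.38 on the log2 scale. *Nfat5*, an NFAT relative that does not need calcineurin, was lower by a log2 fold change of -0.46, and the MAP kinase kinase *Map2k1* by -0.37. The Ras GTPase-activating gene *Rasa1* and the protein kinase C gene *Prkca* were the other two lower calls, at -0.40 and -0.29.

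**Figure D4:**
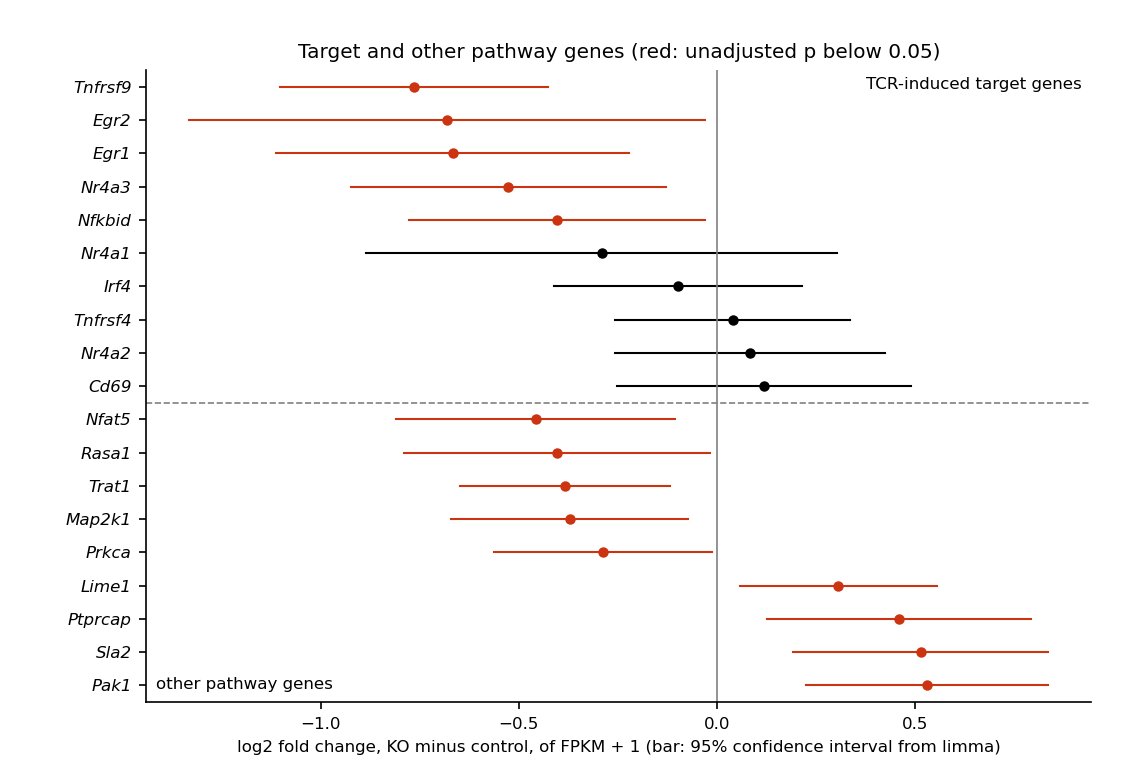
Log2 fold change in KO relative to control, from log2(FPKM + 1) (x axis), for the 10 tested genes that TCR signals induce (above the dashed line) and for the other pathway genes called that are named here (below it), with points for the limma estimate, bars for its 95% confidence interval and red for an unadjusted p below 0.05. The 5 red genes above the line all lie left of 0, and the red genes below it fall on both sides.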

How the data were processed

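RNA-seq of LI Treg cells was used, with 2 control and 2 KO libraries. The authors aligned 150-bp read pairs with STAR (version 2.5) to GRCm38, estimated gene levels by RSEM (version 1.2) and deposited them as FPKM, which keep no depth. The step that gave the libraries one distribution is not given in the sources used here. The records give 200000 sorted cells per library and the methods 500000. Positions and gene types came from GENCODE M21, in which 53274 of 53379 identifiers were found, and upstream windows from RefSeq.

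KO was compared with control by limma 3.58.1 (R 4.3.3) on log2(FPKM + 1), without covariates and with a variance trend, and Benjamini-Hochberg adjustment ran over 7639 genes. The fit was tested on simulated data, where it recovered 99% of 200 changed genes with a median log2 fold change of 1.02. These shifts were larger than those of the members, and the simulated libraries had no gaps shared across genes. The test therefore does not show how well differences of the size seen here are found. Tables and figures used Python 3.11.15, pandas 2.3.3, scipy 1.17.1 and matplotlib 3.10.9.

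The members and lists were chosen with earlier results of these data known. Named members were those with an unadjusted p below 0.05, the most abundant and the smallest p in each role, and those too low to test. Other pathway genes named were the 10 with the smallest p. The rule covered further genes that are not reported here and stay in the counts. Further genes were named to account for the list or after their values were seen. Alternatives were other pseudocounts (0.1 and 5), filters, gene types, scalings, variance models, blocks and each library left out.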

Additional observations from a re-analysis of the deposited data

How the results depend on the processing

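Counts here are at an unadjusted p below 0.05 from limma unless called adjusted, and the cause of each shift was not tested. No member passed the adjusted threshold in any fit, and the lowest adjusted p of a member was 0.0641, for *Txk* in a crossed pairing. Pseudocounts, rescaling, median centring and quantile normalization left 6 or 7 members higher and 0 lower, and a variance model without a trend left 4. The libraries already followed nearly one distribution, with sums from 774923 FPKM in control 1 to 774999 in control 2. Rescaling, median centring and quantile normalization thus had little to change, and their counts are no check on scaling. The median log2 fold change of all genes stayed within 0.0069 of 0 in every fit. In libraries of nearly one distribution this median is no check on scaling either.

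Same-numbered libraries deviated in opposite directions (Pearson r = -0.305 across 7639 genes, -0.751 across 47 members). This is a description across genes, and it cannot show whether same-numbered pools belong together, which neither labels nor methods say. With the replicate number as a block, 0 members were higher, 3 other pathway genes were higher and 6 lower, and over all genes 419 were higher and 377 lower (15 and 12 adjusted). When control 1 shared a block with KO 2, and control 2 with KO 1, a pairing chosen after seeing the data, 9 members were higher and 3 lower, 8 other pathway genes were higher, and 1008 and 983 of all genes were higher and lower (240 and 225 adjusted).

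With a mean FPKM of at least 1, 11 genes were lower at the adjusted threshold. With no filter on low FPKM, 1 member and 2 TCR-induced genes were lower, and 1198 of all genes were higher (adjusted, 8 higher and 3 lower). With all gene types, 3 TCR-induced genes were lower (adjusted over all genes, 5 higher and 8 lower). Without a trend, the adjusted counts were 1 and 2.

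With 1 library left out, where the lone library of a group is taken to vary like the other group, 0 to 6 members were higher and 0 to 4 lower. Other pathway genes ranged from 2 to 7 higher and from 4 to 11 lower, with 1 to 5 TCR-induced genes lower. All genes ranged from 330 to 650 higher and from 314 to 600 lower (adjusted, 1 to 36 and 1 to 30). The 6 called members kept their sign, and 18 members and *Setd2*, none of them called, did not. Their log2 fold changes ranged from -0.45 to 0.26 for *Cbl*, -0.19 to 0.072 for *Cblb*, -0.16 to 0.16 for *Cd3e*, -0.59 to 0.20 for *Cd6*, -0.22 to 0.23 for *Dgkz*, -0.12 to 0.42 for *Fyn*, -0.13 to 0.039 for *Malt1*, -0.71 to 0.0052 for *Nfatc1* and -0.26 to 0.11 for *Pag1*. They ranged from -0.15 to 0.28 for *Plcg1*, -0.37 to 0.57 for *Ppp3cb*, -0.067 to 0.25 for *Rasgrp1*, -0.41 to 0.091 for *Stim1*, -0.16 to 0.16 for *Tespa1*, -0.024 to 0.27 for *Themis*, -0.23 to 0.35 for *Ubash3a*, -0.39 to 0.035 for *Ubash3b*, -0.40 to 0.26 for *Was* and -0.30 to 0.17 for *Setd2*. *Cd3e*, close to 0 as reported, was -0.00065 with median centring and -0.0028 with quantile normalization. Depth is unknown, so no counting error can be given.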

Other observations

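The tested members span long genes, with a median of 47.2 kb, compared with 22.2 kb for all genes tested. Across the 47 members the gene span had a Spearman rho of 0.0413 with the log2 fold change, and across all 7639 genes 0.0145. These are descriptions across genes, which are not independent replicates. *Ppp3ca* had the longest span of the members, 267.604 kb, and *Cd3d* the shortest, 5.554 kb, and both were higher in both KO libraries. The median member lay at the 74.1st percentile of the FPKM of all genes tested.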
